A study of Drosophila melanogaster with 4 samples.

Results

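The 798 broad autosomal domains of H3K4me1 described here are the regions of at least 10 kb on chromosome arms 2L, 2R, 3L and 3R in a list that combines both replicates of the series. They were chosen by width alone, from 6460 enriched autosomal regions and 8219 enriched regions in the whole series. H3K4me1 is the mono-methylated form of lysine 4 of histone H3, and the series mapped it by ChIP-seq (chromatin immunoprecipitation followed by sequencing) in whole embryos of Drosophila melanogaster. The wild-type strain Oregon-R-modENCODE was used, embryos were aged 14 to 16 h and came from population cages, and chromatin was fixed with formaldehyde. The antibody was ab8895, in a batch called new lot 2. There were 2 ChIP libraries, which form the only group analysed here, and 2 libraries of input DNA, whose values were not used here. Whether the replicates were separate collections of embryos is not stated in the labels, and their spread may be technical. Each value with an SD is the mean of both replicate lists. A value of the combined list is the authors' own and has no SD.

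H3K4me1 is a mark of enhancers, the distal sequences that drive expression of a gene in particular cells, and it also flanks active promoters. In Drosophila the methyltransferase Trithorax-related places much of it at enhancers. The mark can be present before an enhancer is active and can remain for a time afterwards. At this age the embryo has nerve cord, muscles, gut and epidermis well under way. Each library mixes all these tissues, and a domain that is strong in few cells cannot be told apart from a domain that is weak in many.

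Genes are not assigned to the domains. The regions are placed on FlyBase release 5 and the only gene table used here is on release 6, so the coordinates do not match and were left unconverted. For the same reason no DNA sequence is shown. The depth of the libraries is unknown. With 1 group of 2 libraries no comparison between conditions exists, and no permutation over libraries could reach a threshold. The values are therefore given as measurements, without p-values.

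The domains made up 12.4% of the autosomal regions but held 12.9 Mb, or 38.4% of the 33.6 Mb of autosomal sequence covered by the combined list. They occupied 13.4% of the 4 arms. The median domain was 13942 bp wide, with quartiles at 11494 and 18431 bp. Most lay near the lower limit: 467 domains (58.5%) were under 15 kb, 186 were 15 to 20 kb, 109 were 20 to 30 kb and 36 were 30 kb or wider. The last 36 held 11.3% of the length of all domains. Regions lay close to the limit on both sides of it. Just inside it lay domains of 10003 bp on 3L (16656802 to 16666804, score 0.50), 10010 bp on 2L (5539164 to 5549173, score 1.44) and 10013 bp on 2L (13776180 to 13786192, score 1.10). Just outside lay regions of 9995 bp on 3R (12449938 to 12459932, score 1.48), 9990 bp on 3R (8837894 to 8847883, score 1.61) and 9979 bp on 2R (16880116 to 16890094, score 1.37).

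Each replicate list on its own had fewer broad regions. Replicate 1 held 604 autosomal regions of at least 10 kb, and replicate 2 held 541. They took 31.4% and 29.7% of the covered autosomal length of their lists (30.5% ± 1.16, SD, n = 2), against 38.4% in the combined list. Their median widths were 13499 and 13244 bp. All 604 and all 541 touched a domain of the combined list, and 481 and 431 of them lay wholly inside 1 domain. The additional domains of the combined list therefore did not replace broad regions of either library.

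**Figure D1:**
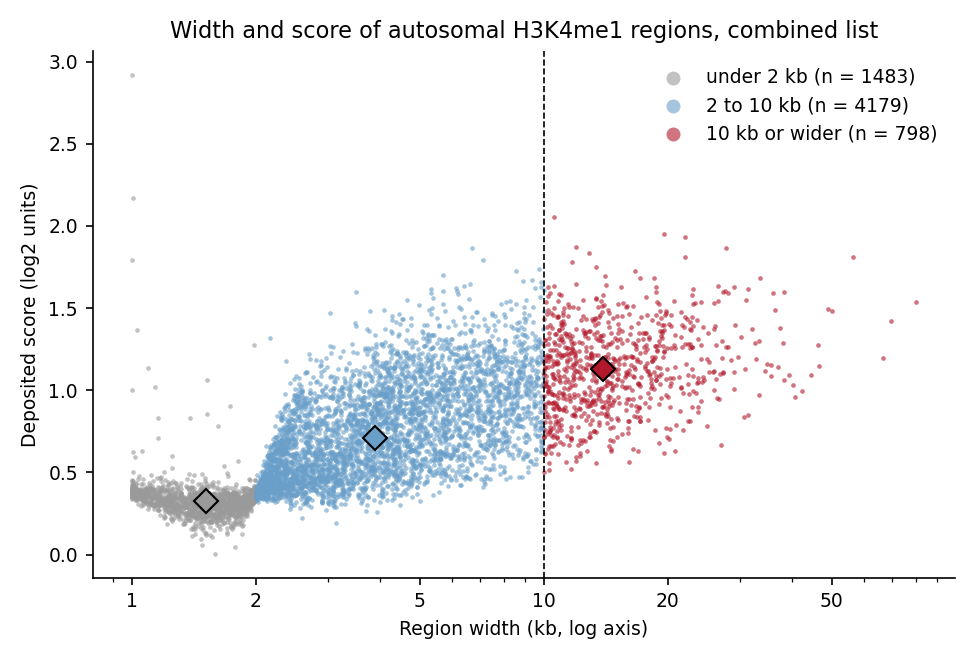
Each point is an autosomal region of the combined list, with its width in kb on a log axis and its deposited score in log2 units, coloured by width class. Diamonds mark the median width and score of each class, and the dashed line marks the limit of 10 kb. The broad domains have the highest median score, 1.13, and their points span scores of 0.50 to 2.05.

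Scores of the domains were high for the list. The deposited score behaves as a log2 value with a constant of its own in each list, so differences are read within a list. The median score of the domains was 1.13, with quartiles at 0.95 and 1.31. All autosomal regions had a median of 0.64, and 20 of the 798 domains (2.51%) fell below it. Of the 646 autosomal regions in the top 10% by score, 320 were broad domains, so that 40.1% of the domains reached this level against 10% of all autosomal regions. Width and score come from the same call, and this share is a description.

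The rise of score with width was steep below the limit and shallow above it. In the combined list the median score was 0.33 under 2 kb, 0.61 from 2 to 5 kb and 0.95 from 5 to 10 kb. Within the domains it was 1.09 from 10 to 15 kb, 1.16 from 15 to 20 kb, 1.20 from 20 to 30 kb and 1.24 from 30 kb. Among domains alone the rank correlation of width with score (Spearman's rho) was 0.20 in the combined list (n = 798), 0.21 among the broad regions of replicate 1 (n = 604) and 0.25 among those of replicate 2 (n = 541). On none of the 4 arms was the widest domain among the 2 with the highest score.

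The 2 strongest domains of each arm were 10562 to 56411 bp wide, and most came as a single region in each library. On 3L the highest score, 2.05, belonged to a domain of 10562 bp at 20998367 to 21008928, and its single region scored 2.14 in replicate 1 and 1.95 in replicate 2. Next on that arm stood a domain of 22025 bp at 10658108 to 10680132, with 1.93 in the combined list, 1.96 in replicate 1 and 1.90 in replicate 2. On 2R the leaders were 11965 bp at 5428696 to 5440660 (score 1.87) and 27708 bp at 15141045 to 15168752 (score 1.87). Both of these were a single region in each replicate.

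On 3R the highest score was 1.95, in a domain of 19633 bp at 13523964 to 13543596, which was covered to 99.3% in replicate 1 and 99.7% in replicate 2. The second on 3R was the widest of these, with 56411 bp at 12029401 to 12085811 and a score of 1.81. It lay in 2 pieces in each library, and the longer piece measured 44709 bp in replicate 1 and 44651 bp in replicate 2. The leaders of 2L scored less, with 1.81 for 21974 bp at 16265969 to 16287942 and 1.65 for 11964 bp at 241506 to 253469. Of these 8 strongest domains, 7 were in 1 piece in both lists.

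The weakest domains were narrow and were broken or partly missing in the replicates. The lowest score, 0.50, was that of the narrowest domain, the 10003 bp on 3L named above. It lay in 2 pieces in each list and was covered to 75.5% in replicate 1 and 64.1% in replicate 2. Next came 3R from 22261915 to 22272224, with a score of 0.51, where 1 region of replicate 1 covered 66.4% and 3 regions of replicate 2 covered 50.8%. The third was 2R from 3049711 to 3061347, with a score of 0.52 and 2 pieces in replicate 1 against 3 in replicate 2.

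Scores of the domains ranked alike in both libraries. For the 371 domains that were a single region in each list, Spearman's rho between the replicate scores was 0.93. Over all 798 domains, with the mean score of the pieces weighted by their length, it was 0.94. These correlations run across regions of libraries that also made the combined list, and the regions are not independent replicates.

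The next question was how the domains came apart when each library was called alone. Each of the 798 domains was found in both lists. Of the regions of 2 to 10 kb, 97.4% were found in replicate 1 and 92.7% in replicate 2, and of all autosomal regions 83.5% and 76.9%. Replicate 1 covered 95.4% of the summed length of the domains and replicate 2 covered 92.7% (94.0% ± 1.92, SD, n = 2). Regions of 2 to 10 kb were covered to 89.6% and 82.1% (85.9% ± 5.29). At least 90% of the length was covered in 680 domains (85.2%) by replicate 1 and in 576 (72.2%) by replicate 2. Of the regions of 2 to 10 kb, 68.1% and 50.3% reached this level, and of all autosomal regions 59.2% and 43.4%. In 538 domains (67.4%) both lists covered at least 90%. Replicate 1 covered more of the domain than replicate 2 in 527 domains (66.0%).

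The share of domains that were split depended on the shortest break counted. A domain is called split here when 2 or more regions of a replicate list overlap it by at least 1 bp. Replicate 1 split 278 domains (34.8%) and replicate 2 split 368 (46.1%), with a mean of 40.5% ± 7.97 (SD, n = 2). The mean was 19.1% when pieces less than 500 bp apart were joined first, and 10.2% with 1000 bp. Among all autosomal regions 8.73% and 11.1% were split, and among those of 2 to 10 kb 6.82% and 8.38%. Wider regions have more room for a break. Per 10 kb of length the domains had 0.278 breaks in replicate 1 and 0.398 in replicate 2, against 0.161 and 0.202 in regions of 2 to 10 kb, so the domains were higher in both libraries. A region close to 2 kb has little room for 2 pieces above the shortest listed width, which also lowers the value of the mid-width regions.

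Most split domains lay in few pieces. In replicate 1, 520 domains were a single region, 215 were in 2 pieces, 47 in 3, 14 in 4 and 2 in 5. In replicate 2 the numbers were 430, 266, 72 and 21, with 9 domains in 5 or more pieces. The libraries often differed in this: 371 domains (46.5%) were whole in both, 219 (27.4%) were split in both, 59 (7.39%) were split in replicate 1 alone and 149 (18.7%) in replicate 2 alone. The number of pieces was equal in 507 domains (63.5%).

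**Figure D2:**
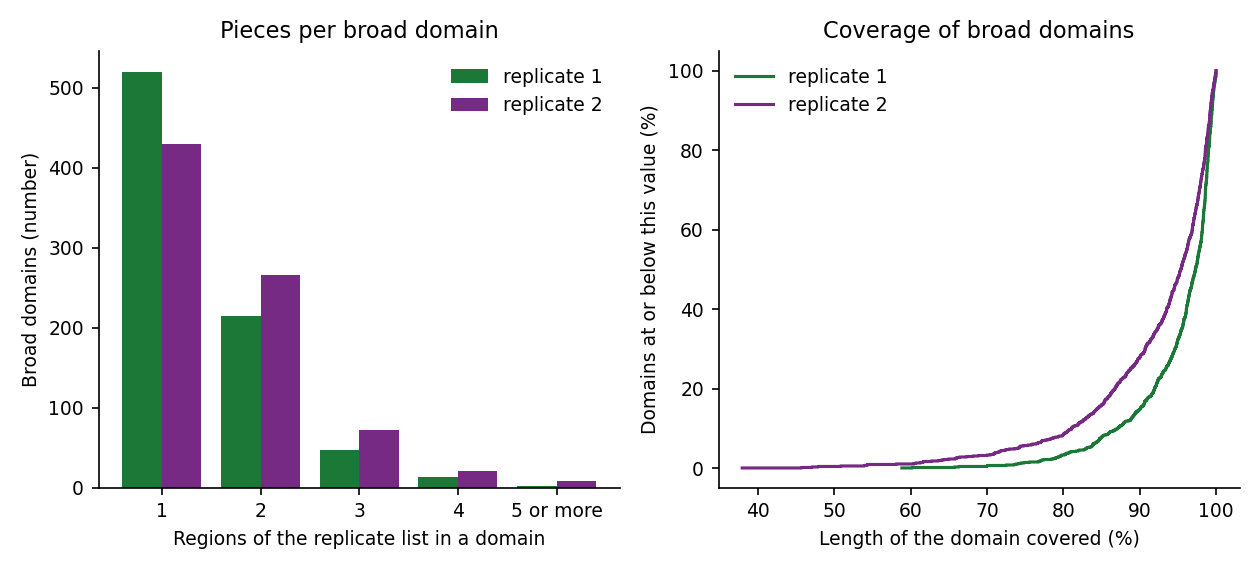
The left panel counts the broad domains by the number of replicate regions that overlap them, with 520 domains in 1 piece in replicate 1 and 430 in replicate 2. The right panel shows, for each replicate, the cumulative percent of domains against the percent of their length that was covered. The curve of replicate 2 reaches further left, down to 38.0%, against 58.9% in replicate 1.

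A piece of at least 10 kb was left in 589 domains (73.8%) in replicate 1 and in 523 (65.5%) in replicate 2. It was left in both lists for 478 domains, in 1 list for 156 and in neither for 164 (20.6%). Pieces were measured inside the domain, so a replicate region that ran past its border could still be 10 kb or wider. These 164 domains were narrower, with a median of 11337 bp against 16094 bp for the 478. Their scores were also lower, with medians of 0.89 and 1.22. Of the 164, 113 were split in both lists and 27 were in 1 piece in both, with less than 10 kb covered.

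In replicate 2 the domains in most pieces were among the widest. On 2L, the arm's widest domain (3811689 to 3858241, 46553 bp, score 1.15) lay in 4 pieces in replicate 1 and 7 in replicate 2. On 3R, the widest (9795505 to 9862199, 66695 bp, score 1.20) lay in 4 and 6 pieces, but a long piece remained, which measured 42062 bp in replicate 1 and 41907 bp in replicate 2. On 2L from 8262517 to 8304960, a domain of 42444 bp and score 0.99 lay in 3 and 6 pieces. The widest domain of 3L (17948697 to 18018218, 69522 bp, score 1.42) lay in 4 and 5 pieces, with a longest piece of 25122 and 24844 bp.

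Replicate 1 had 2 domains in 5 pieces, the most in that list, and both were narrower than these and weak. On 3R from 12661456 to 12688345, a domain of 26890 bp with a score of 0.66 lay in 5 pieces in each list, and coverage was 87.9% in replicate 1 and 67.4% in replicate 2. On 2L from 14482390 to 14504755, a domain of 22366 bp with a score of 0.81 also lay in 5 pieces in each list, and its longest piece measured 8202 bp in replicate 1 and 5224 bp in replicate 2. Of the domains in 4 pieces in replicate 1, the widest was that of 3L named above, with a score of 1.42, which was neither narrow nor weak. The widest domain of all was far less divided for its width. That domain, on 2R from 8832629 to 8912475 (79847 bp, score 1.54), lay in 3 pieces in each list, and the longest measured 42032 and 56122 bp.

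Wide domains without a break existed as well. The widest found as a single region in both lists was on 2R from 4512324 to 4548630, with 36307 bp, a score of 1.49 and coverage of 99.6% in replicate 1 and 99.7% in replicate 2. It was followed by 3L from 533526 to 569110 (35585 bp, score 1.15) and by 3R from 26618429 to 26650442 (32014 bp, score 1.37). In domains of 20 kb or more, 75 of 145 (51.7%) were whole in replicate 1 and 52 (35.9%) in replicate 2.

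The least covered domains were weak, with scores of 0.56 to 0.79, and 2 of the 6 were covered to over 95% in the other library. In replicate 2 the lowest coverage, 38.0%, was on 3L from 19688231 to 19699564 (11334 bp, score 0.57), where a single region of replicate 1 covered 97.3%. On 3R from 15623504 to 15635970 (score 0.70), replicate 2 covered 45.8% and replicate 1 covered 95.6%. On 3L from 7809173 to 7820335 (score 0.68) the values were 47.1% and 76.8%. In replicate 1 the lowest were 58.9% on 2L from 14452214 to 14464468 (score 0.60), 60.2% on 2R from 4862520 to 4875902 (score 0.56) and 65.7% on 3R from 6357029 to 6367663 (score 0.79). Replicate 2 covered these last domains to 64.4%, 58.1% and 70.0%, so that both libraries left large parts of them out. Coverage under 50% occurred in 0 domains in replicate 1 and in 4 in replicate 2.

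Splitting followed the score of the domain. Domains were ranked by combined score and divided into 4 groups of 199 or 200. In the lowest group 57.5% were split in replicate 1 and 75.5% in replicate 2 (66.5% ± 12.7, SD, n = 2). In the next groups the means were 47.7% ± 10.7 and 29.6% ± 6.40. In the highest group 16.5% and 19.5% were split (18.0% ± 2.12). The fall from the lowest to the highest group, 48.5 percentage points, was 41 in replicate 1 and 56 in replicate 2, and so larger than the spread between replicates. The median domain width was 12735 bp in the lowest group and 15113 bp in the highest, so the group that was split most often was the narrower. The combined score rests on the same libraries as the replicate lists.

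The same order held within each width class. Among domains of 10 to 15 kb, the median combined score was 1.16 for domains whole in replicate 1, 0.91 for those in 2 pieces and 0.78 for those in 3 or more. By replicate 2 these medians were 1.19, 0.94 and 0.77. Among domains of 20 kb or more they were 1.37, 1.13 and 1.05 by replicate 1 and 1.39, 1.16 and 1.06 by replicate 2.

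**Figure D3:**
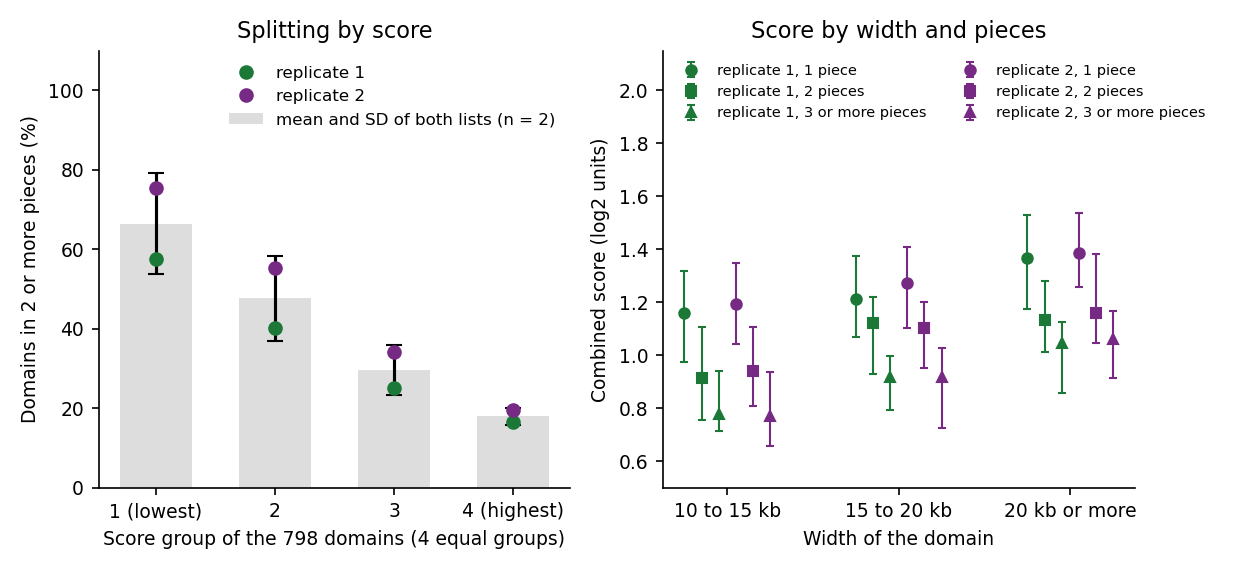
The left panel gives the percent of broad domains in 2 or more pieces for each of the 4 groups of domains by combined score. Bars and error bars are the mean and SD of both replicate lists, points are the lists, and the means fall from 66.5% to 18.0%. The right panel gives the median combined score, with bars from the lower to the upper quartile, by width class and number of pieces in each list, and in each class and list domains in 1 piece have the highest median.

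The breaks themselves were short. A break is an uncovered stretch between successive pieces of a list inside a domain. Replicate 1 had 359 breaks with a median of 317 bp and a longest of 4151 bp. Replicate 2 had 511 breaks with a median of 401 bp and a longest of 4817 bp. Breaks of at least 500 bp numbered 124 and 225. Together the breaks took 1.38% of the length of the domains in replicate 1 and 2.54% in replicate 2. More of the uncovered length lay at the ends of the domains, with 3.23% and 4.80%. Most ends moved little, and the median shift was 95 bp in replicate 1 against 141 bp in replicate 2.

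Some of the breaks overlapped between libraries. Of the 359 breaks of replicate 1, 199 (55.4%) overlapped a break of replicate 2. Of the 511 of replicate 2, 198 (38.7%) overlapped a break of replicate 1. These shares count the same overlaps from each side, over different numbers of breaks. The SD of their mean (47.1% ± 11.8, n = 2) is therefore no replicate spread of sharing. Breaks took no more than 2.54% of the domain length in either list, a share of bases that is not an expected rate of overlap. When at least 50% of the break had to be covered by a break of the other list, the mean was 28.6%. Shared breaks were longer, with a median of 362 bp against 278 bp for the other breaks of replicate 1, and 591 against 327 bp in replicate 2. A longer break overlaps another more easily. Among the breaks that were not shared, 135 of 160 in replicate 1 and 298 of 313 in replicate 2 lay wholly inside a single piece of the other list.

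A few broad regions of a library reached into more than 1 region of the combined list. Of the broad regions of replicate 1, 2 of 604 overlapped 2 or more combined regions of any width, and of those of replicate 2, 7 of 541 did. A broad region of replicate 1 on 2R, from 14209398 to 14235118, reached a pair of domains that touch each other with a gap of 0 bp. It ended just past the start of the second domain at 14235116. After 66 bp a separate region of replicate 1 covered 11710 bp of that second domain, so replicate 1 also divided this pair. A broad region of replicate 2 on 3R, from 16366629 to 16394449, ran over a pair of domains 16 bp apart. No other broad region of either list reached into more than 1 domain. The first pair and the second pair are counted as separate domains here, as the authors' list gives them.

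The domains were then compared over the chromosome arms. In the combined list 3R held 251 domains, 2R 201, 3L 189 and 2L 157. Arm 2R had 9.51 domains per Mb, 3R had 8.99, 3L had 7.70 and 2L had 6.82. Of all 798 domains, 25.2% lay on 2R (95% exact Clopper-Pearson interval 22.2 to 28.4%, counting error only), where 22.6% of all autosomal regions lay. On 2L the share was 19.7% (interval 17.0 to 22.6%) against 23.0% of all autosomal regions. Neighbouring domains are not independent, so these intervals are too narrow.

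The replicate lists gave the same order of arms. Arm 2R had 6.95 ± 0.268 broad regions per Mb, 3R had 6.47 ± 0.481, 3L had 5.77 ± 0.547 and 2L had 4.50 ± 0.522 (SD, n = 2). The difference between 2R and 2L was larger than the spread between replicates, with 7.14 against 4.87 per Mb in replicate 1 and 6.76 against 4.13 in replicate 2. The neighbours in this order 2R and 3R, and 3R and 3L, differed by less than the sum of their SDs. These SDs hold a shift between lists, since replicate 1 was higher on every arm. Within each list the order was the same, with 3R at 6.81 and 3L at 6.15 per Mb in replicate 1, and 6.13 and 5.38 in replicate 2. Broad regions were 10.7% ± 0.219 of the regions on 2R and 7.72% ± 0.678 of those on 2L. Their median score, read within each list, was also highest on 2R, at 1.31 in replicate 1 and 1.29 in replicate 2. Arm 3R followed with 1.26 and 1.25, above 2L with 1.21 and 1.20 and 3L with 1.22 and 1.19. Splitting ranged from 37.3% ± 8.73 of domains on 3R to 42.9% ± 9.73 on 3L. The SDs hold a shift between lists that all arms share, and 3R was the lowest arm in both, with 31.1% against 36.0% on 3L in replicate 1 and 43.4% against 49.7% in replicate 2.

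Over the arms together, broad regions were densest in the part nearest the telomere and sparsest in the part nearest the centromere, with no steady fall between. When each assembled arm was divided into 5 equal parts from the telomere inwards, broad regions numbered 7.19 ± 0.659, 5.85 ± 0.439, 5.67 ± 0.329, 6.37 ± 0.512 and 4.55 ± 0.366 per Mb (SD, n = 2). The part nearest the telomere was above the part nearest the centromere in both lists, with 7.66 against 4.81 in replicate 1 and 6.73 against 4.30 in replicate 2. All other autosomal regions together varied less, from 58.3 ± 1.35 per Mb in the second part to 51.2 ± 0.732 in the fourth, and numbered 55.0 ± 0.146 in the innermost. The low innermost part was not seen on every arm. In the combined list the last 2 Mb before the centromere end held 4 domains on 2L, 2 on 2R and 3 on 3L, but 17 on 3R, while the 2 Mb at the telomere end held 22, 19, 29 and 16. How much of this sequence allows unique mapping of reads is not known here.

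Spacing along the arms was uneven, as it was for regions of every width class. The median gap between successive domains on an arm was 51.0 kb, while the mean gap was 98.8 kb and the longest 1224 kb. Another domain lay within 10 kb of 278 domains (34.8%), and the remaining 520 stood alone at this distance. Among the fewer broad regions of each replicate list this share was 25.5% and 27.4%. In the combined list 43.3% of the regions under 2 kb and 83.2% of those of 2 to 10 kb had another of their own class within 10 kb, and these classes have more members. The median gap was 0.516 times the mean gap for the domains, 0.522 times for regions under 2 kb and 0.318 times for those of 2 to 10 kb. The 278 formed 123 runs in which each gap was under 10 kb: 100 pairs, 16 runs of 3 domains, 5 of 4 and 2 of 5.

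The longest run was on 3L from 678727 to 796378. Its 5 domains, 10136 to 39263 bp wide with scores of 0.72 to 1.21, filled 92.7% of 118 kb, and replicate 1 covered 88.0% of this span and replicate 2 87.7%. The other run of 5, on 3R from 2909984 to 2982736, filled 79.7% of 72.8 kb with domains of at most 13841 bp, whose scores ranged from 0.64 to 1.63. Of the runs of 4, the widest was on 3R from 6339862 to 6445839, where 81.8% of 106 kb lay in domains and scores ranged from 0.73 to 1.08. Coverage there was 76.7% in replicate 1 and 77.8% in replicate 2.

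Close neighbours had scores that were more alike than those of distant neighbours. For the 155 pairs of successive domains under 10 kb apart, Spearman's rho between their scores was 0.38, and for the 253 pairs at least 100 kb apart it was -0.026. Among broad regions of replicate 1 the values were 0.23 (83 pairs) and -0.049 (248 pairs), and among those of replicate 2 they were 0.31 (79 pairs) and -0.036 (238 pairs). Pairs in a list share a library and overlapping neighbourhoods, so these values are a description.

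Windows of 1 Mb held between 0 and 21 domains, with a median of 8 over 97 windows. The variance of these counts was 1.84 times their mean in the combined list and 1.62 ± 0.082 times in the replicate lists (SD, n = 2). In the combined list the ratio was 2.12 for regions under 2 kb and 3.59 for those of 2 to 10 kb, and in the replicate lists 1.61 ± 0.409 and 4.06 ± 0.423. The mean count per window was 8.23 for the domains and 15.2 and 43.0 for the other classes. At equal relative unevenness this ratio rises with the mean count, so it does not rank the classes. The variance less the mean, divided by the squared mean, was 0.102 for the domains. It was 0.0735 for regions under 2 kb and 0.0602 for those of 2 to 10 kb. In the replicate lists these values were 0.106 ± 0.0222, 0.0525 ± 0.0329 and 0.0701 ± 0.0120, so by this measure the domains were the most uneven. For the domains the ratio of variance to mean was 1.41 when the 2 Mb at the centromere end of each arm were left out, a choice made after the data were seen. The fullest window was the first of 3L, from 1 to 1000000, with 21 domains in the combined list, 16 broad regions in replicate 1 and 17 in replicate 2, and the longest run lies within it. It was followed by 2R from 3000001 to 4000000, with 17, 11 and 11, and by 3L from 16000001 to 17000000, with 16, 12 and 11. The 4 windows with no domain were all at the centromere end of 2L, 2R or 3L.

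**Figure D4:**
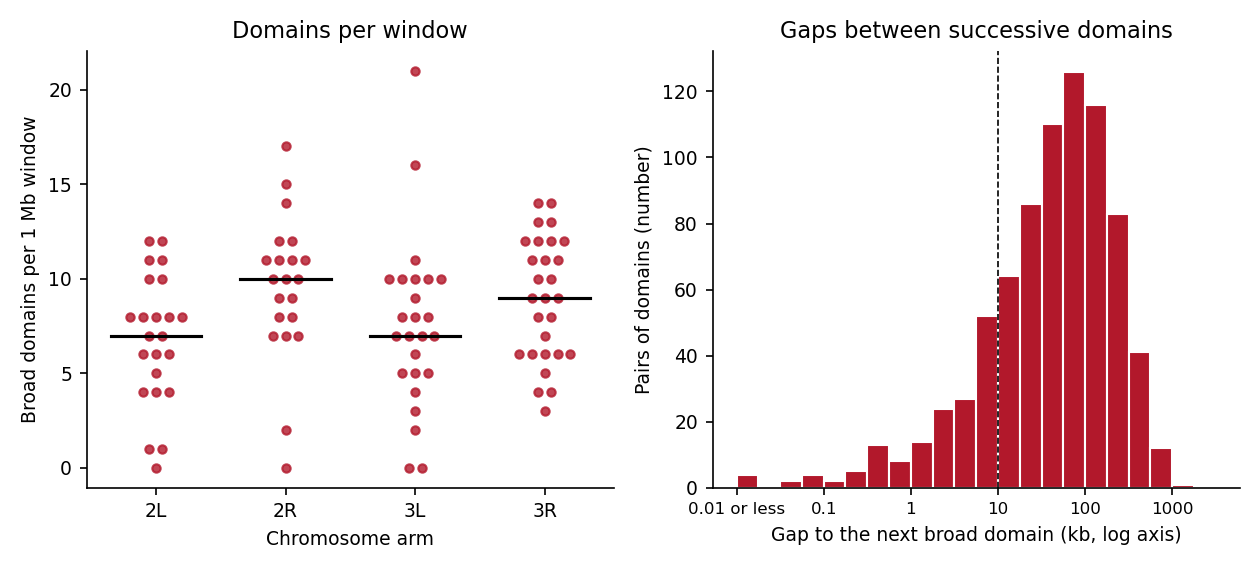
The left panel shows the number of broad domains of the combined list in each window of 1 Mb by chromosome arm, with a line at the median of the arm. The top point is the window of 3L with 21 domains. The right panel shows the gaps between successive domains in kb on a log axis, with a dashed line at 10 kb. Most gaps are longer than 10 kb, around the median of 51.0 kb, and a tail of short gaps runs to the left.

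The numbers of domains and of other regions were also compared by window. Across the 97 windows, Spearman's rho between the number of domains and the number of all other regions was 0.24, while between the broad regions of replicate 1 and of replicate 2 it was 0.91. Domains take up room that other regions could fill, which bears on the first value. Inside the arms, the longest stretches between domains held other regions. The combined list covered 34.8% of the arms as a whole. That value includes the domains, which these stretches lack by choice, so lower coverage in them is partly built in. The longest was on 2L from 14504756 to 15728627, where 63 other regions covered 16.2% of 1224 kb. On 2R from 15520737 to 16481944, 55 other regions covered 18.7% of 961 kb, and on 3R from 2982737 to 3785211, 31 covered 13.4% of 802 kb.

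Sequence beside the domains was also rich in H3K4me1 regions. From 5 to 10 kb beyond the edges of a domain, replicate regions covered 43.8% ± 1.60 of the sequence (SD, n = 2), against 29.7% ± 1.53 over the 4 arms as a whole. At the same distance from regions of 2 to 10 kb the value was 39.5% ± 1.98, and from regions under 2 kb it was 31.4% ± 2.24. The domains exceeded the regions of 2 to 10 kb by 4.00 percentage points in replicate 1 and by 4.54 in replicate 2. These differences vary less between replicates than the levels do, since replicate 1 covered more sequence throughout. At 50 to 100 kb the domains still exceeded them by 1.61 and 1.72 points, with a level of 34.2% ± 1.59.

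Next to the edge itself coverage was low. It was 6.59% ± 0.188 within 0.5 kb of a domain and 16.1% ± 1.01 from 0.5 to 1 kb. Low coverage there is partly built in, since the combined region ends at that edge and rests on the same libraries. Within 0.5 kb it was also low beside regions of 2 to 10 kb (5.33% ± 0.633) and under 2 kb (4.42% ± 1.29). The nearest other region of the combined list lay within 1 kb of 50.0% of the domains, at a median distance of 1001 bp. For regions of 2 to 10 kb these values were 44.2% and 1220 bp. Domains therefore often ended at a short gap with a further region beyond it. When regions less than 500 bp apart were joined, the number of autosomal regions of at least 10 kb rose to 921, and with 1000 bp it rose to 1050.

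**Figure D5:**
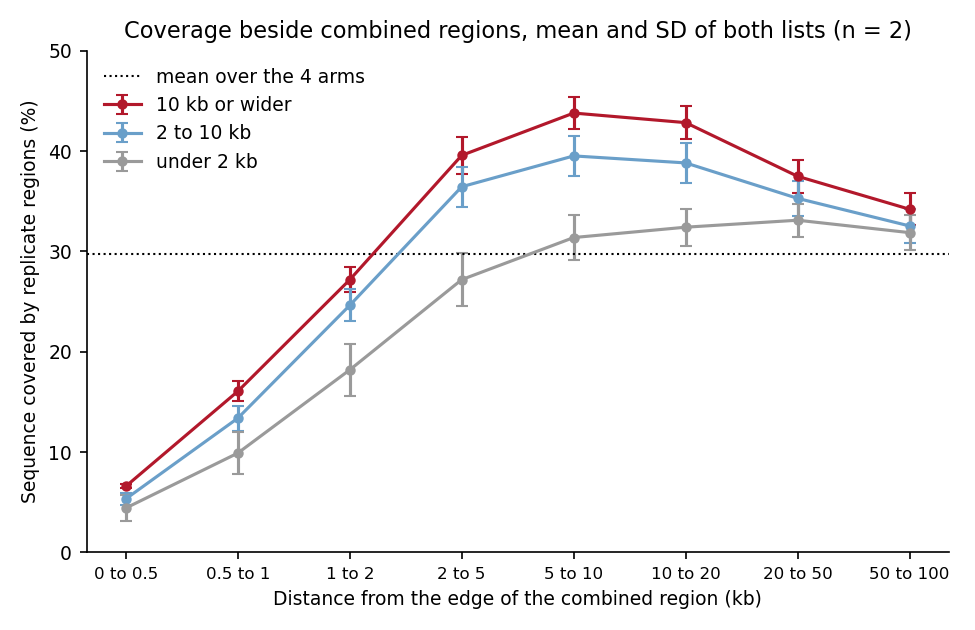
The percent of sequence covered by replicate regions is plotted against the distance in kb from the edges of combined autosomal regions, for 3 width classes. Points and error bars are the mean and SD of both replicate lists (n = 2), and the dotted line is the mean over the 4 arms, 29.7%. The line of the broad domains is highest at each distance and peaks at 43.8% from 5 to 10 kb.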

How the data were processed

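The authors deposited 3 lists of enriched regions, one per ChIP library and a combined list, giving for each region its first and last base (1-based, FlyBase release 5, per the file headers). Bowtie 0.12.7 was used, per the submitters' processing notes. The labels name an input library for the region lists, and how regions were called and thresholded, how input entered and how replicates were combined is not stated in the labels or headers. The deposited score is taken as a log2 value. In base 2, 7822 of 7823 distinct scores of the combined list, and all 7115 and 6597 of the replicates, were the logarithm of a constant times a ratio of whole numbers (denominators up to 20000, relative tolerance 2e-13). In base e 24, 16 and 20 passed, and in base 10 35, 41 and 26. The constant was chosen on the 60 shortest regions of each list.

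Depth is unknown, so no precision could be derived from it. Regions named as depleted were left out. Overlap meant at least 1 bp. A last window under 500 kb was dropped, and a region counted in the window of its midpoint. Python 3.11.15, numpy 2.4.6, pandas 2.3.3, scipy 1.17.1 and matplotlib 3.10.9 were used. On simulated lists of 798 regions, 100% of known pieces and breaks were recovered. The simulated breaks had a fixed length and the outer pieces ended at the domain borders. Regions that run past a border or leave an end uncovered were not simulated. Named regions are, per arm, the widest and the 2 strongest. To these come the 3 weakest, the 3 in most pieces and the 3 least covered per replicate, and the 3 widest whole in both. The rule also takes the 3 longest runs, the 3 fullest windows and the 3 on each side of the limit. Domain pairs overlapped by the same replicate region, stretches without a domain, the score groups and the flanking distances were chosen after their values were seen. The members and lists were chosen with earlier results of these data known. A planned comparison of gene lists was not made, since no release 5 annotation was at hand. Replicate numbers follow the sample titles, and each list was assigned to its library by the repository's record. Both lists carry the experiment number that the labels give to ChIP replicate 1, so this assignment is uncertain. If the lists were exchanged, the names replicate 1 and 2 would change places, and means and SDs would stay.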

Additional observations from a re-analysis of the deposited data

Results flagged for a closer look

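Regions of at least 10 kb also lay outside the 4 autosomal arms, on sequences that the comparisons above did not use, and were picked out because they exceed the limit of 3 that a count of 0 allows. The combined list had 216 on X, or 9.63 per Mb, with 168 in replicate 1 and 143 in replicate 2. It had 5 on chromosome 4, or 3.70 per Mb, with 5 in replicate 1 and 3 in replicate 2.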

How the results depend on the processing

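Of 60 values under alternatives for 10 results, 26 stayed within the spread between replicates (counts: within 1.5 times) and 34 moved. Where a result is the mean of both lists, a single list always lies within that spread, so those values could only stay. The alternatives for the fall in splitting and without centromere ends were chosen after the data were seen. With a minimum width of 8, 12 and 20 kb, the share of covered length was 48.1%, 30.2% and 12.02%, the variance over the mean 2.10, 1.57 and 1.20, and domains with another within 10 kb 45.7%, 26.3% and 12.4%. The median score was 1.09 at 8 kb and 1.20 at 20 kb. At 20 kb there were 145 domains, of which 56.2% were split. Only regions at or above the median score gave a share of covered length of 49.7%. Joining regions less than 500 or 1000 bp apart gave 47.3% and 55.9%. Joining pieces in the same way lowered the share of split domains to 19.1% and 10.2%, so most splits rest on short breaks. The variance over the mean was 1.65 in windows of 500 kb, 2.39 in windows of 2 Mb and 1.41 without the centromere ends. Domains with another within 5 kb were 22.2%, and within 20 kb 50.5%. Breaks shared over 50% of their length were 28.6%. The fall in splitting from the lowest to the highest score group was 65.7 points in domains of 20 kb or more.

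With a single replicate list in place of the combined list or of the mean, results ranged as follows. Domains numbered 541 to 604. The share of covered length was 29.7 to 31.4%, 2R over 2L 1.47 to 1.64 against 1.39, the median score 1.24 to 1.25, the variance over the mean 1.56 to 1.68, and domains with another within 10 kb 25.5 to 27.4%. The score has a constant of its own in each list, so the move of its median is not read as a change. Split domains were 34.8 to 46.1%, covered length 92.7 to 95.4%, and the fall in splitting 41 to 56 points. Shared breaks need both lists, and as a share of the breaks of a single list they were 38.7 to 55.4%. No paired analysis was possible because only the ChIP group has values, so no groups were compared.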
